A study of Mus musculus with 6 samples.

Results

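Lysosomes digest what macrophages engulf, and 3 gene families carry the core of that work: the V-ATPase, the proton pump that acidifies the compartment, the cathepsins, the proteases that become active in it, and LAMP1 and LAMP2, the glycoproteins that line its membrane. These genes were examined in bone marrow-derived macrophages (BMDMs) 1 h after lipopolysaccharide (LPS). They were taken by name from the deposited count table as protein-coding genes called Atp6v or Atp6ap with any ending, Cts with a single letter, Lamp1 or Lamp2, a rule that uses no measured value, although the families were picked with earlier results of these data known. The rule gave 46 genes out of 55335 rows, of which 21899 were protein-coding. Of the 46 genes, 33 had enough counts to be tested, among 15687 tested genes in all, and 13 did not.

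The cells were grown from bone marrow of young adult male C57BL/6 mice in L929-conditioned medium and given either PBS (control) or LPS, with 3 libraries of total RNA in each group and no genetic change in either. The LPS dose was not given in the sources used here, and neither was whether the libraries came from separate mice, so p-values measure the spread between these libraries, which may be technical. Library totals were between 37787611 and 41516330 counts. The LPS response was present: Tnf, the cytokine gene that the study was built around, rose by 6.83 (SE 0.05) on the log2 scale (adjusted p = 5.0e-24).

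The V-ATPase has a cytosolic V1 sector that splits ATP and a V0 sector in the membrane that carries protons, joined by stalks. Several subunits are encoded by more than one gene, and some of these paralogs serve single tissues such as kidney, testis or bone. Cathepsins are made as inactive precursors that are processed in acid. Cysteine cathepsins such as cathepsins B, L and S form the largest class, cathepsins D and E are aspartic proteases, and cathepsins A and G are serine proteases. Many lysosomal genes are regulated together by transcription factors of the MiT/TFE family, which bind promoter motifs built around the palindrome CACGTG.

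Among these genes, Ctsc and Atp6v1e1 rose clearly after LPS and Atp6v1g2 fell, while the other 30 tested genes lay between -0.13 and 0.39 on the log2 scale. Cathepsin C RNA was 3.36 times as high in LPS as in control cells. The RNA for the V1 subunit E1 was 1.67 times as high. The weakly expressed V1 subunit gene Atp6v1g2 was at 0.341 times its control level. These 3 genes kept their direction and an adjusted p under 0.05 in every alternative fit that was run. The direction of most of the others depended on how libraries were scaled, as described after the values of each family.

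Promoter sequences are shown here for the genes that rose most, Ctsc and Atp6v1e1, and for 2 genes that hold the MiT/TFE-type palindrome, Lamp1 and Ctsd. Each is the RefSeq window from 250 bases before to 50 bases after a gene start on GRCm38.p6, written 5′ to 3′ on the strand of the gene, with every CACGTG in capitals.
Ctsc, chr7:88277835-88278134, plus strand: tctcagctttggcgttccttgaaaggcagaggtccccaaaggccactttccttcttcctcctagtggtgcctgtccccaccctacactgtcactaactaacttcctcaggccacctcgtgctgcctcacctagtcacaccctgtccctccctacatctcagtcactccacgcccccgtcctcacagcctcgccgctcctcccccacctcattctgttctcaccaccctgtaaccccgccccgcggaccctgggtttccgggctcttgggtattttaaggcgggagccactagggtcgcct
Atp6v1e1, chr6:120822649-120822948, minus strand: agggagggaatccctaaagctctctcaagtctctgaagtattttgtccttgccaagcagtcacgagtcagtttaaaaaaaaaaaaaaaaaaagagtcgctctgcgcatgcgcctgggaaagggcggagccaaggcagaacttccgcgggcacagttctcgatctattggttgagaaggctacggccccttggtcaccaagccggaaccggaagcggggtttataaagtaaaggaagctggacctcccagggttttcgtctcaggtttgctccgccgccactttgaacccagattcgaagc
Lamp1, chr8:13158911-13159210, plus strand: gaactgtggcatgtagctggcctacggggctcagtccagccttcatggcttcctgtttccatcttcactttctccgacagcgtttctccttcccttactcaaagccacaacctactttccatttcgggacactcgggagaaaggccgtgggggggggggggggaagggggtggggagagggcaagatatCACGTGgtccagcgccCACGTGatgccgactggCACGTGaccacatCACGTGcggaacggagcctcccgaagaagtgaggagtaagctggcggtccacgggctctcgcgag
Ctsd, chr7:142387778-142388077, minus strand: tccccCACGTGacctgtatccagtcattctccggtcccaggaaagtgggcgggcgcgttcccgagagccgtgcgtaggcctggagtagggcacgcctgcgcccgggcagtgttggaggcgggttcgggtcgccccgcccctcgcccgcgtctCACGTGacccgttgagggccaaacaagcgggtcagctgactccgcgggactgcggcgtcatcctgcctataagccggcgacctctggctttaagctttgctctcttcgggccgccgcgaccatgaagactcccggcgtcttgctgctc
The Lamp1 window holds 4 copies of the palindrome and the Ctsd window 2, whereas the letters do not occur in the Ctsc and Atp6v1e1 windows.

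Over the families, 35 of the 46 genes had such a window, including 24 of the 33 tested genes. CACGTG occurred in 9 of these 24 genes (37.5%), against 11.6% of 10158 tested genes with a window and 7.15% of all 32851 windows. The 9 genes were Atp6v0b, Atp6v0d1, Atp6v0e, Atp6v1a, Ctsa, Ctsd, Ctsf, Ctsl and Lamp1. A gene was counted when any of its windows held the motif, and a window need not lie at the gene start in GENCODE. The Atp6v0e window lay 13165 bp from that start, and the Ctsa window with the motif 900 bp from it. The longer TCACGTG, read on either strand and always overlapping the shorter motif, occurred in 7 of the 24 (29.2%), against 6.89% of tested genes. Among the holders of CACGTG, log2 fold changes ran from -0.06 for Ctsd to 0.36 for Atp6v0d1. The AP-1 motif TGACTCA, read on either strand, was in no window of the 24 genes and in 4.76% of tested genes. The NF-κB motif was in 1 window, that of Ctso, and in 6.25% of tested genes. These matches describe the letters of the windows and are not binding data.

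In levels per length, cathepsins were the most abundant products. The 5 highest genes were Ctss, Ctsd, Ctsb, Ctsz and Lamp1. Cathepsin S, a protease of antigen processing, had 3614 ± 14.5 RPKM (TMM-scaled CPM per kb of exon, where CPM is the usual count relative to the library total; SD, n = 3) in control cells and 3883 ± 69.9 in LPS cells. Cathepsin D had 2433 ± 45.3 and 2336 ± 7.1 RPKM, and cathepsin B had 1903 ± 13.9 and 2297 ± 17.2 RPKM. With the longest transcript as the length, Ctsd had 2690 and 2582 RPKM and Ctsb 2428 and 2930, so their order changed in LPS cells. Lamp1, at 825 ± 8.7 and 945 ± 6.45 RPKM, made up 91.8% of the summed LAMP level in control and 91.6% in LPS cells, or 83.6% and 83.1% when the longest transcript was taken as the length. All 46 genes together took 3.75 to 3.80% of the counts of a control library and 3.25 to 3.27% of an LPS library, shares that did not overlap. With library size as the only scaling, 65.9% of all tested genes fell, and the median of all tested genes was -0.42 on the log2 scale.

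**Figure D1:**
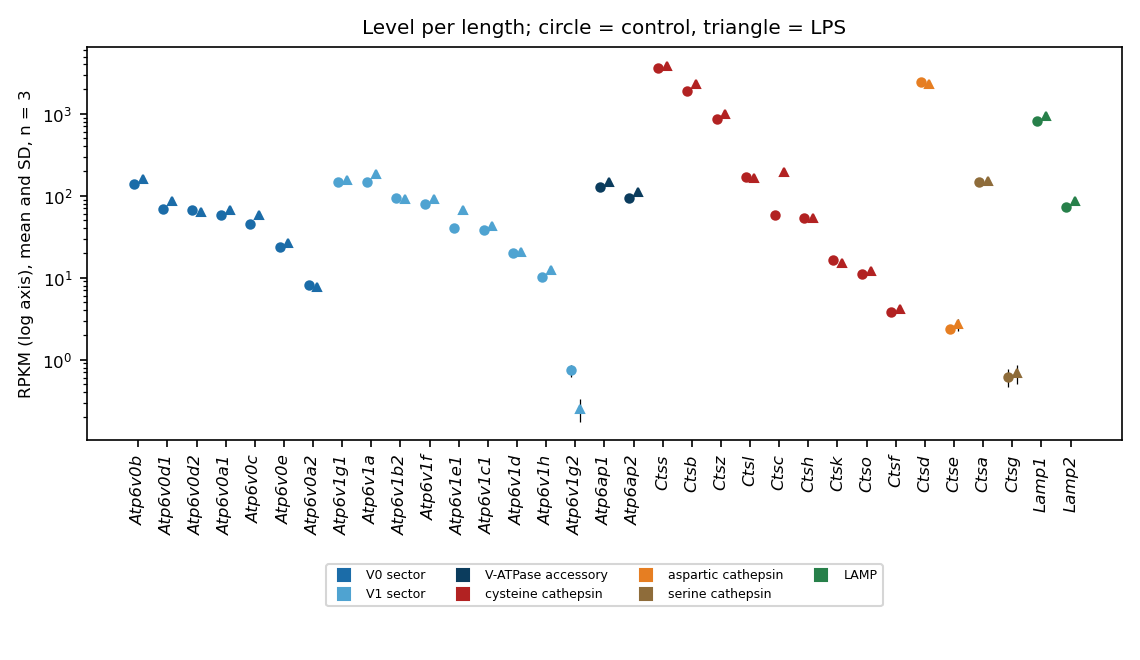
RPKM on a log axis for the 33 tested genes, mean with SD over 3 control libraries (circles) and 3 LPS libraries (triangles), coloured by family. Ctss, Ctsd and Ctsb lie highest in both groups, most V-ATPase subunits lie between 8 and 190 RPKM, and Atp6v1g2 and Ctsg lie below 1.

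The 13 genes that could not be tested were absent or nearly so. For 9 of them no read was counted in any library: Atp6ap1l, Atp6v0a4, Atp6v1b1, Atp6v1e2, Atp6v1g3, Ctsj, Ctsm, Ctsq and Ctsr. A count of 0 allows a level of up to 3 counts, or 0.063 to 0.0919 TMM-scaled CPM in a library, as far as counting error goes. Several of these are known from single tissues, such as Atp6v0a4 and Atp6v1b1 in kidney and Ctsj, Ctsm, Ctsq and Ctsr in placenta. Atp6v0e2 was counted 12, 5 and 6 times in the control and 1, 6 and 3 times in the LPS group, and Ctsw, a protease of cytotoxic lymphocytes, had 10, 5 and 9 against 2, 8 and 7. Atp6v1c2 had 1 count in 1 library of each group. Atp6v1fnb, with 7, 4 and 7 against 5, 3 and 1 counts, entered by its name as a neighbour of Atp6v1f and is not a pump subunit.

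With edgeR's quasi-likelihood test and TMM scaling, which sets libraries level on the bulk of their genes, at a Benjamini-Hochberg adjusted p under 0.05, 19 of the 33 tested genes rose and 3 fell, whereas 2 rose and 26 fell with library size as the only scaling. With library size alone, 15.0% of all tested genes rose and 65.9% fell. With TMM scaling, 32.9% of all tested genes rose and 34.9% fell, and over protein-coding genes 34.6% rose and 35.8% fell. The median log2 fold change of the 33 genes was 0.16, against -0.01 for all tested genes. Beyond a log2 fold change of 1, the size the study required, 1 gene rose (Ctsc; 10.5% of all tested genes) and 1 fell (Atp6v1g2; 10.4%). The other 18 rises were all smaller than that.

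**Figure D2:**
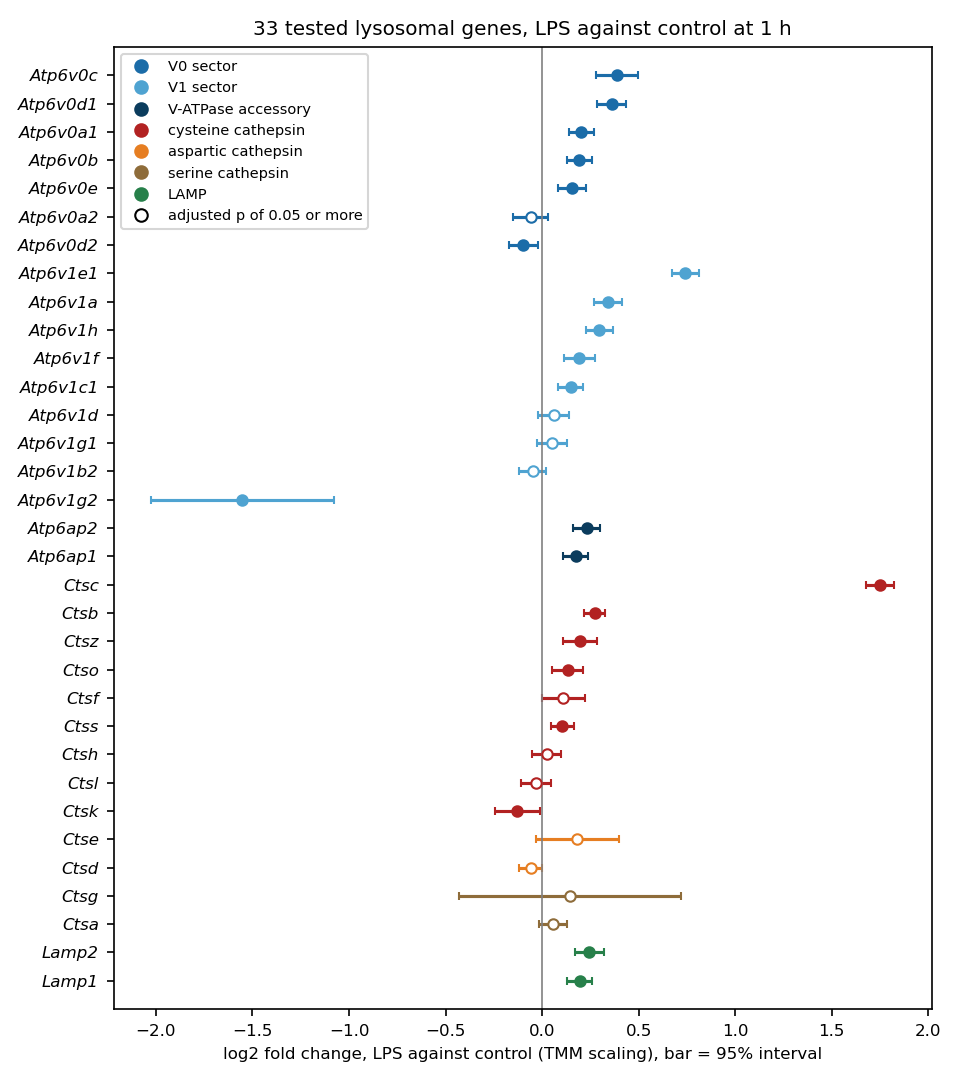
Log2 fold change of LPS against control for the 33 tested genes (TMM scaling; bars, 95% interval of the fit, 3 libraries per group), coloured by family; filled points had an adjusted p under 0.05. Ctsc at 1.75, Atp6v1e1 at 0.74 and Atp6v1g2 at -1.55 stand apart from the other genes.

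Of the V1 genes, Atp6v1e1 changed most among the well-expressed ones. Subunit E is part of the peripheral stalks that hold V1 against V0. Its level was 170, 164 and 166 CPM in the 3 control libraries and 274, 286 and 277 CPM in the 3 LPS libraries. Every LPS library was above every control library, and the log2 fold change was 0.74 (SE 0.03, adjusted p = 6.2e-13). Its raw counts were higher too, 7428 to 8105 in control and 9211 to 9431 in LPS libraries, although LPS libraries had smaller totals. Atp6v1e1 was the whole of the E subunit RNA, since its testis paralog Atp6v1e2 had no counts.

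Atp6v1a, the catalytic A subunit, had 914, 869 and 883 CPM in control and 1115, 1110 and 1156 CPM in LPS libraries, a log2 fold change of 0.34 (SE 0.03, adjusted p = 7.8e-08). Atp6v1h, a regulatory subunit of V1, rose from 99.5 to 99.8 CPM in control libraries to 119 to 126 CPM (log2 fold change 0.30, SE 0.03). Atp6v1f, of the central stalk, and Atp6v1c1, a subunit released when the pump comes apart, rose by 0.19 and 0.15. In each of these 4 genes every LPS library was above every control library after TMM scaling. How many of all tested genes separate in this way was not counted, here or for the other genes described. With TMM scaling, 32.9% of all tested genes were called rises. With library size alone the groups overlapped for Atp6v1a, and LPS libraries lay below control libraries for Atp6v1h, Atp6v1f and Atp6v1c1. They were at -0.06, -0.11, -0.21 and -0.26, in the same order, with library size alone.

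The remaining 3 well-expressed V1 genes did not pass the test. Atp6v1b2, the partner of the A subunit in the catalytic head, had 488 to 510 CPM in control and 480 to 490 CPM in LPS libraries, and its 95% interval on the log2 scale was -0.12 to 0.02. Atp6v1g1, a stalk subunit, had an interval of -0.03 to 0.13, and Atp6v1d, of the central rotor, one of -0.02 to 0.14. Their groups overlapped. Without the first control library Atp6v1g1 passed the test at 0.09 (adjusted p = 0.04). With TMM scaling, the well-expressed subunits of this sector thus ranged from no detected change to a rise of 0.74. With library size alone Atp6v1b2, Atp6v1g1 and Atp6v1d were called falls, at -0.45, -0.35 and -0.34. Upper quartile scaling, an alternative, also gave falls for Atp6v1b2 (-0.19, adjusted p = 4.5e-05) and Atp6v1g1 (-0.09, adjusted p = 0.037).

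Atp6v1g2, the G subunit gene known from neurons, was low throughout. The control libraries held 72, 93 and 92 of its reads and the LPS libraries 18, 28 and 17, or 1.51, 2.06 and 1.99 against 0.54, 0.86 and 0.5 CPM. All LPS libraries were below all control libraries, and the log2 fold change was -1.55 (SE 0.22, adjusted p = 7.9e-06). Per length it supplied 0.5% of the G subunit RNA in control and 0.16% in LPS cells, the rest being Atp6v1g1. The gene lies at chr17:35233660-35238767 (GRCm38), on the plus strand. Its start is 31653 bp from that of Tnf, which is read in the other direction, and it overlaps the start of Nfkbil1, also on the minus strand, by 2133 bp. Nfkbil1 fell as well, by 0.91 on the log2 scale (SE 0.10, adjusted p = 4.1e-07), from 337 to 392 counts to 131 to 143. The overlap covers 5.74% of the exonic bases of Atp6v1g2, and how reads in it were counted was not stated, so its part in the fall was not tested. Ddx39b, the next gene on the strand of Atp6v1g2, had a log2 fold change of -0.03 (adjusted p = 0.55).

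**Figure D3:**
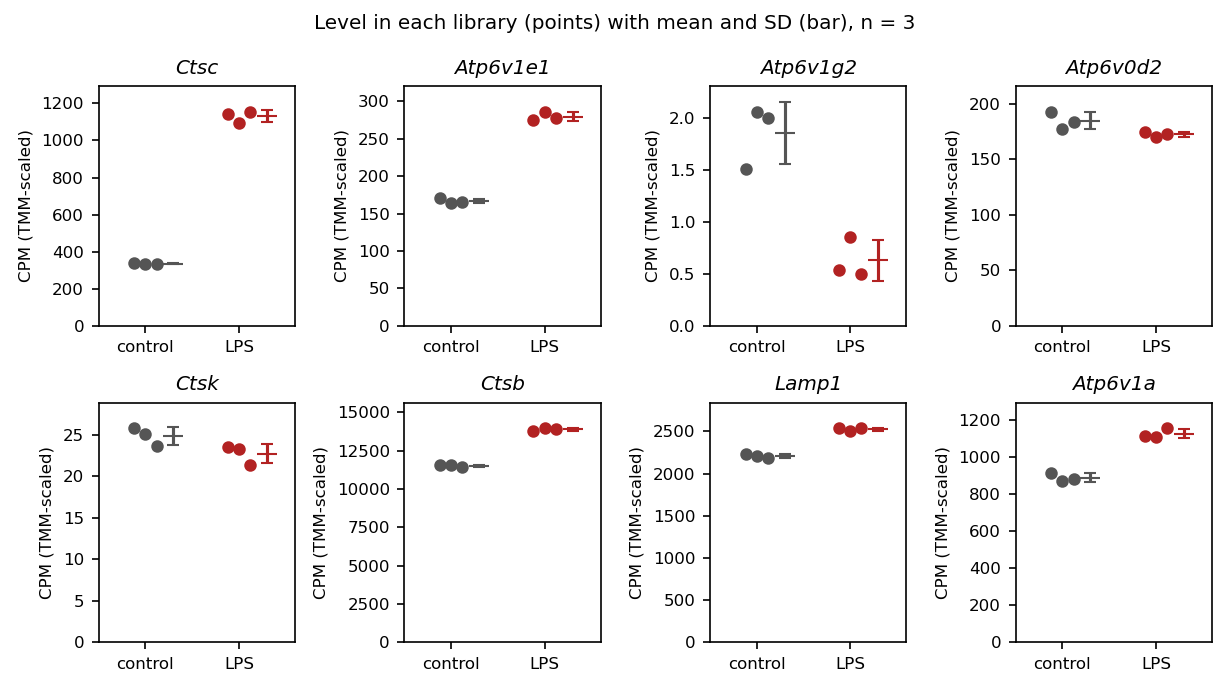
TMM-scaled CPM in each library (points; 3 control in grey, 3 LPS in red) with mean and SD for 8 of the genes; every axis starts at 0. The groups are far apart for Ctsc, Atp6v1e1 and Atp6v1g2, and close together for Atp6v0d2 and Ctsk, whose fitted log2 fold changes are -0.10 and -0.13.

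Among the V0 genes, the largest rise was that of Atp6v0c, which encodes the proteolipid of the rotating ring. It had 138, 164 and 151 CPM in control and 189, 210 and 194 CPM in LPS libraries, which gave a log2 fold change of 0.39 (SE 0.05, adjusted p = 3.1e-06). Processed pseudogenes of this gene are annotated, and how reads shared with them were counted was not stated. Atp6v0b, another ring subunit, had 282 to 290 against 323 to 332 CPM (log2 fold change 0.19), and Atp6v0e, a small membrane subunit, 86.2 to 89.5 against 97.4 to 98.8 CPM (0.16). Both pairs of ranges were separate after TMM scaling, a separation that was not counted over all tested genes. Atp6v0c, Atp6v0b and Atp6v0e were at -0.02, -0.21 and -0.25 with library size alone.

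The d subunit, which couples the ring to the central stalk, comes from a pair of genes that moved apart. Atp6v0d1, the widely expressed form, had 120, 126 and 119 CPM in control and 155, 162 and 153 CPM in LPS libraries (log2 fold change 0.36, SE 0.04, adjusted p = 6.1e-08). Atp6v0d2, the form known from osteoclasts and some macrophages, had 193, 178 and 184 CPM in control and 175, 170 and 173 CPM in LPS libraries (log2 fold change -0.10, SE 0.04, adjusted p = 0.022). The fall of Atp6v0d2 was small, and it lost its call without the first control library (adjusted p = 0.11) or the second LPS library (adjusted p = 0.056), with DESeq2's size factors (adjusted p = 0.058) and in DESeq2's own test (adjusted p = 0.071). With library size alone both were negative, at -0.05 and -0.50, but a ratio of the paralogs does not depend on how libraries are scaled. Per length, Atp6v0d1 supplied 48.6, 51.9 and 49.6% of d subunit RNA in control libraries and 57.3, 59.0 and 57.3% in LPS libraries. The ranges did not overlap, the means differing by 7.83 percentage points, and an exact permutation test of 3 against 3 libraries cannot give a two-sided p below 0.1.

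The a subunit, which carries the path for protons and directs the pump to its membrane, came largely from Tcirg1, the a3 gene of osteoclasts and macrophages, whose name the rule does not match. Per length, Tcirg1 supplied 68.9% of a subunit RNA in control and 68.8% in LPS cells, Atp6v0a1 27.3% and 27.9%, and Atp6v0a2 3.83% and 3.27%. Atp6v0a1 rose from 374 to 384 CPM to 435 to 441 CPM (log2 fold change 0.20, SE 0.03). Tcirg1 rose by 0.17 (SE 0.04, adjusted p = 0.00046). Both turned negative with library size alone, at -0.20 and -0.24. Atp6v0a2, known from the Golgi, had overlapping groups at 52.7 to 58.1 and 52.1 to 52.9 CPM and an interval of -0.15 to 0.03.

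Both tested accessory genes rose a little with TMM scaling and were at -0.23 and -0.17 with library size alone. Atp6ap1, an assembly factor that stays with V0, had 385 to 396 CPM in control and 437 to 444 CPM in LPS libraries (log2 fold change 0.17). Atp6ap2, also known as the prorenin receptor, had 247 to 254 against 285 to 296 CPM (0.23). Of all V-ATPase genes, 12 of the 18 tested rose and 2 fell, with a median of 0.18, against 32.9% rising and 34.9% falling of all tested genes. With library size alone 1 rose and 14 fell, against 15.0% and 65.9% of all tested genes.

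Cathepsin C, or dipeptidyl peptidase I, trims dipeptides from other proteases and activates the granule serine proteases of neutrophils, mast cells and cytotoxic lymphocytes. Its gene lies at chr7:88278085-88310888. The control libraries held 16186, 15055 and 15442 Ctsc reads and the LPS libraries 38321, 35682 and 39319, or 340, 333 and 335 against 1142, 1093 and 1155 CPM. The groups were far apart, with a log2 fold change of 1.75 (SE 0.03, adjusted p = 3.8e-18). With library size as the only scaling, the value was 1.35. As a share of the summed cathepsin counts, which needs no scaling, Ctsc went from 1.29 to 1.31% in control to 3.69 to 3.95% in LPS libraries. Per length it moved from 57.8 ± 0.607 to 195 ± 5.62 RPKM, from the fifth to the fourth of the cysteine cathepsins, past Ctsl.

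Because Ctsc and Ctsg are also known from granulocytes, and Ctsk, Atp6v0d2 and Tcirg1 from osteoclasts, markers of those cells are given beside them. Macrophage markers dominated, with a summed level of 30924 to 32262 CPM over 10 genes in control and 37148 to 37534 CPM in LPS libraries. Lyz2 was the highest of them, at a mean of 23748 CPM. Cd14 rose most, at a log2 fold change of 3.19, whereas Fcgr1 was at -0.48 and Mertk at -0.04. The 10 neutrophil markers summed to 45.0 to 48.7 CPM in control and 59.1 to 63.8 CPM in LPS libraries, with Ly6g at 0 to 3 counts in every library. The 7 markers of mast cells and basophils summed to 2.97 to 3.3 CPM and 4.38 to 4.87 CPM, Tpsb2 and Cma1 being at 0. The 7 osteoclast markers summed to 103 to 108 CPM and 119 to 122 CPM. Among them, Ocstamp had a log2 fold change of 1.45 on only 7 to 8 counts in control and 11 to 19 in LPS libraries. Acp5 was at 1.34, Itgb3 at 0.54 and Dcstamp at 0.32, whereas Mmp9 was at -0.13 and Nfatc1 at -0.06. The 5 dendritic cell markers went from 4.05 to 5.42 CPM in control to 11.8 to 12.3 CPM in LPS libraries, and the 6 markers of T and NK cells were at 1.11 to 1.37 and 1.03 to 1.29 CPM. After TMM scaling the ranges of the T and NK cell sum overlapped, and the other 5 sums were higher in every LPS library. With library size alone the macrophage and osteoclast sums were lower in every LPS library, and the ranges of the neutrophil sum overlapped. The sums of mast cells and basophils and of dendritic cells stayed higher there. The part of these cell types in the results was not tested, and in bulk RNA a change in the number of cells of a type and in RNA per cell cannot be told apart.

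The abundant cysteine cathepsins moved far less than Ctsc. Cathepsin B, a broad endopeptidase, had 11559, 11567 and 11418 CPM in control and 13779, 13974 and 13939 CPM in LPS libraries, a log2 fold change of 0.27 (SE 0.03, adjusted p = 2.6e-08). Unscaled, however, Ctsb took 1.31 to 1.33% of the counts of control libraries and 1.20 to 1.21% of LPS libraries, which is the other direction. Ctsz, a carboxypeptidase, rose by 0.20 (SE 0.04), from 1192 to 1293 CPM to 1360 to 1517 CPM. Ctss rose by 0.10 (SE 0.03, adjusted p = 0.0037), from 4887 to 4926 CPM to 5211 to 5382 CPM, and Ctso by 0.13 (SE 0.04, adjusted p = 0.0061). None of these rises held its direction and its call under library size scaling.

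Ctsk, the collagenase of osteoclasts, was the only cathepsin that fell in this fit. It had 25.8, 25.1 and 23.6 CPM in control and 23.5, 23.3 and 21.4 CPM in LPS libraries. The ranges were next to each other, and the log2 fold change was -0.13 (SE 0.06, adjusted p = 0.046). Its call was lost without the first control library (adjusted p = 0.15), the second control library (0.094) or the third LPS library (0.18), with DESeq2's size factors (0.082) and in DESeq2's own test (0.16). The call was kept with a replicate block (0.020) and with limma voom (0.049). Larger called falls came with upper quartile scaling (-0.27, adjusted p = 0.00027) and with library size alone (-0.53, adjusted p = 8.9e-08). Ctsl, an endopeptidase, had 1076 to 1126 CPM against 1025 to 1116 CPM, and Ctsh, an aminopeptidase, 234 to 251 against 239 to 251 CPM, both overlapping. Ctsf, at 19.0 to 19.3 and 20.2 to 21.2 CPM, had a log2 fold change of 0.11 that missed the threshold (adjusted p = 0.071) and passed it with DESeq2's size factors (adjusted p = 0.036).

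The aspartic and serine cathepsins gave no call in this fit. Ctsd, a main lysosomal protease, had 5840, 5687 and 5635 CPM in control and 5484, 5482 and 5511 CPM in LPS libraries. The LPS libraries were all lower, yet the log2 fold change was only -0.06 (SE 0.03, adjusted p = 0.075). Ctsd passed as a fall of about the same size with a replicate block (adjusted p = 0.046) and with limma voom (adjusted p = 0.020), and at -0.06 to -0.08 with other filters or gene sets (adjusted p from 0.013 to 0.039). It passed as a larger fall with upper quartile scaling (-0.20, adjusted p = 4.8e-06) and with library size alone (-0.46, adjusted p = 5.3e-11). Of its exonic bases, 34.4% also belong to Gm49369 on the same strand, for which no read was counted. How reads in these shared bases were counted was not stated, so the RPKM of Ctsd may be too low. Smaller overlaps concern Ctsl (26.8%), Ctsa (17.4%), Ctsb (12.8%), Atp6v0b (11.8%), Atp6v0a2 (9.86%) and Lamp1 (9.31%). Pltp, which overlaps Ctsa, had more reads than Ctsa. Ctse had 7.35 to 7.75 against 7.51 to 10.3 CPM and overlapped, with a value of 0.18 that passed the test only without the second LPS library (0.27, adjusted p = 0.03). Ctsa, a carboxypeptidase that also protects other hydrolases, had an interval of -0.01 to 0.13 and passed as a rise of 0.08 in DESeq2's own test (adjusted p = 0.027). Ctsg, a neutrophil granule protease, had 23 to 39 and 19 to 31 counts, and its interval of -0.43 to 0.72 was too wide to show a small change.

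Both LAMP genes rose by similar small amounts with TMM scaling and were at -0.21 and -0.16 with library size alone. Lamp1 had 2229, 2213 and 2183 CPM in control and 2536, 2507 and 2537 CPM in LPS libraries, a log2 fold change of 0.19 (SE 0.03, adjusted p = 1.7e-05). Lamp2, whose product also serves chaperone-mediated autophagy, had 705, 687 and 714 against 836, 804 and 856 CPM, a log2 fold change of 0.24 (SE 0.03, adjusted p = 6.6e-06). Their ranges were separate in each case, a separation that was not counted over all tested genes. The share of Lamp1 in the LAMP level moved by only 0.264 percentage points (0.481 with the longest transcript as the length).

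How large these small rises are, and even their sign, depends on the reference against which a library is scaled. TMM factors averaged 1.15 in control and 0.869 in LPS libraries, so a gene with an unchanged share of all counts appears as a rise. With library size alone, 2 of the 33 genes rose (Ctsc and Atp6v1e1) and 26 fell, against 15.0% and 65.9% of all tested genes. With upper quartile scaling, 9 rose and 10 fell, against 23.6% and 46.3% of all tested genes. The 30 genes other than Ctsc, Atp6v1e1 and Atp6v1g2 all had a negative value with library size alone, from -0.53 to -0.02. Upper quartile scaling put the median of all tested genes at -0.16, and library size alone at -0.42. The median of the 33 genes lay 0.17 above that of all tested genes under each of the 4 scalings, a gap that a change of scaling leaves nearly fixed because it shifts all genes alike. No spike-in is mentioned in the sources used here, so the RNA amount per cell was not measured.

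**Figure D4:**
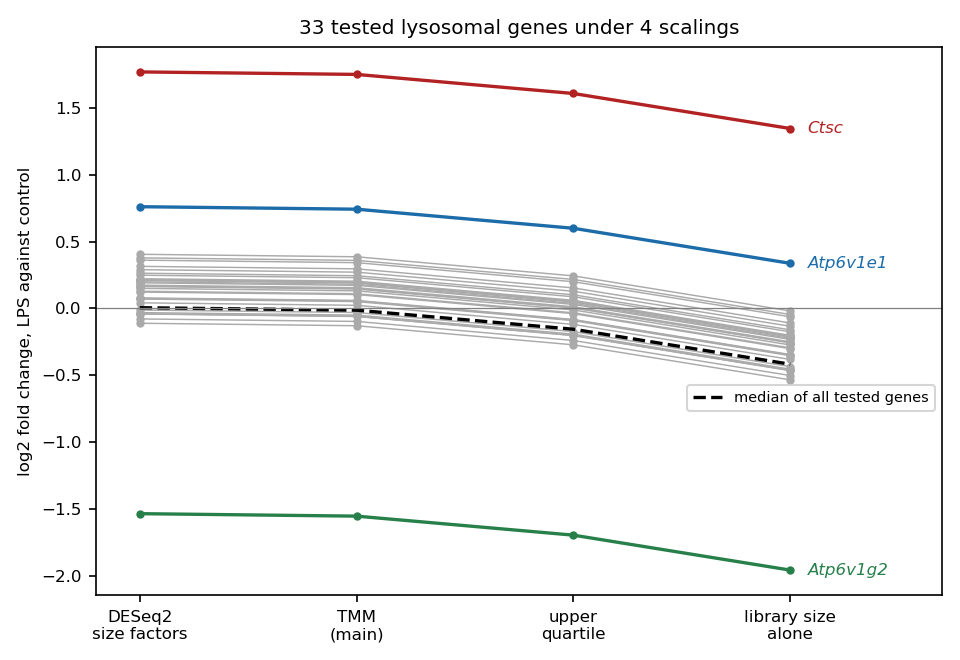
Log2 fold change of the 33 tested genes under 4 ways of scaling libraries (1 line per gene), with the median of all tested genes as a dashed line. Ctsc, Atp6v1e1 and Atp6v1g2 keep their direction throughout, whereas the other 30 genes shift down with the dashed line and all lie below 0 with library size alone.

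Other lysosomal genes were read from 8 lists to place these families. Of 156 genes, 147 were tested, and 70 rose (47.6%) and 28 fell (19.0%), with a median of 0.10, against 32.9% and 34.9% of all tested genes. With library size alone 18 rose (12.2%) and 119 fell (81.0%), against 15.0% and 65.9% of all tested genes. The same background shares apply to the counts of each list. Among 40 lysosomal hydrolases 20 rose and 7 fell, against 3 and 35 with library size alone. Acp5, tartrate-resistant acid phosphatase, rose by 1.34 (SE 0.07), and Rnaset2a by 1.24, although its near-identical copy Rnaset2b makes that value uncertain. Hyal1, a hyaluronidase, fell by 0.84 and Sgsh, a sulfamidase, by 0.53. Among 28 tested genes for lysosomal membrane proteins and channels 15 rose and 6 fell, against 3 and 21. Lmbrd1, for cobalamin export, rose by 1.07, and Slc29a3, a nucleoside transporter, fell by 0.62 and Ctns, the cystine exporter, by 0.35. Among 16 sorting genes 7 rose and 1 fell, against 1 and 15. Igf2r and M6pr, the mannose 6-phosphate receptors, rose by 0.55 and 0.30 and the adaptor Gga3 fell by 0.79.

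Genes that regulate lysosomes gave some larger values. All 4 MiT/TFE genes passed the test. Tfec rose from 15.8 ± 1.25 to 113 ± 3.87 CPM (SD, n = 3), its log2 fold change being 2.85 (SE 0.05, adjusted p = 6.5e-19). Tfeb fell from 49.0 ± 1.53 to 27.1 ± 1.58 CPM (log2 fold change -0.85, SE 0.05, adjusted p = 2.9e-11). Mitf and Tfe3 rose by 0.31 and 0.16, values that turned to -0.10 and -0.25 with library size alone. Of 15 genes for the Ragulator, the Rag GTPases and folliculin, which tether growth control to the lysosome, 5 rose (33.3%) and 4 fell (26.7%), shares near the 32.9% and 34.9% of all tested genes. With the replicate block 8 rose and 4 fell, against 33.9% and 35.7% of all tested genes, and with library size alone 2 and 12, against 15.0% and 65.9%. Flcn, the folliculin gene, fell by 1.08 and Fnip2, its partner, by 0.33, while Rheb and Rraga rose by 0.77 and 0.68.

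Of 12 further V-ATPase genes 6 rose and 3 fell (against 32.9% and 34.9% of all tested genes), and with library size alone 2 and 8 did (16.7% and 66.7%, near the 15.0% and 65.9% of all tested genes). Dmxl2, a subunit of the rabconnectin complex that helps V1 and V0 to assemble, rose by 0.65, and Ncoa7, which binds V1, by 0.54. Ccdc115 and Tldc1 fell by 0.87 and 1.16, the former acting in V0 assembly. Of 7 tested cathepsin inhibitors 3 rose and none fell, and with library size alone 1 rose and 5 fell. Cst7, cystatin F, which inhibits cathepsin C in immune cells, rose by 1.67 (SE 0.17, adjusted p = 1.2e-07) from 36 to 47 counts in control libraries to 83 to 104 in LPS libraries. Cstb and Cst3, the widely expressed cystatins B and C, rose by 0.18 and 0.10. Of 25 autophagy genes 11 rose and 6 fell (44.0% and 24.0%), and with library size alone 5 and 20 did. The cargo receptors Sqstm1 and Optn rose by 1.87 and 1.64, and Atg14 and Atg12, of the initiation and conjugation machinery, fell by 1.39 and 0.81.

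**Figure D5:**
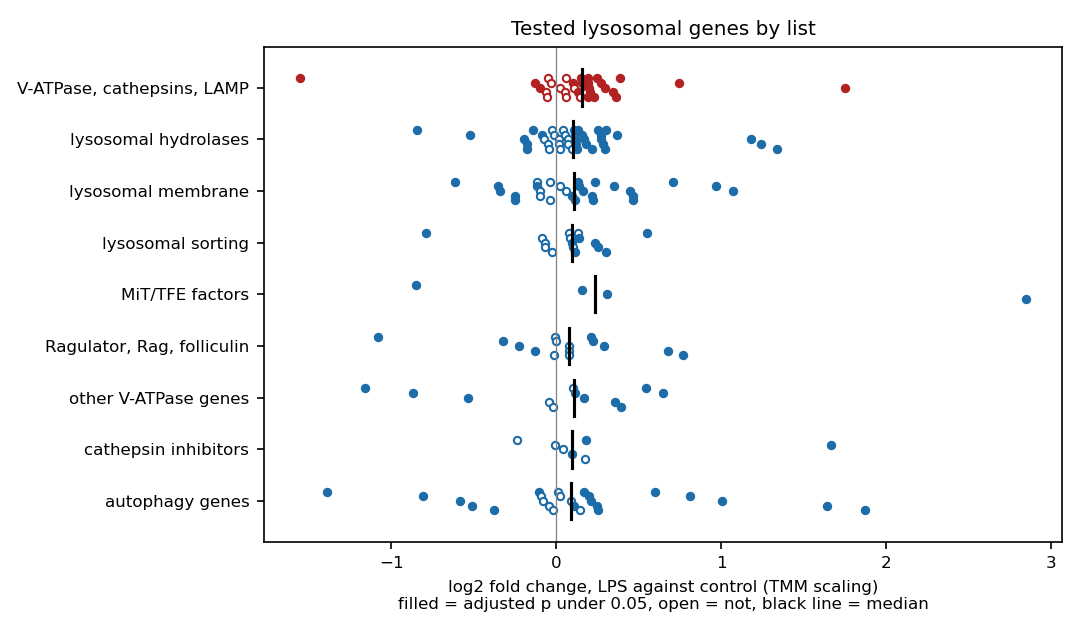
Log2 fold change of LPS against control (TMM scaling) for the tested V-ATPase, cathepsin and LAMP genes (red) and for 8 other lysosomal and autophagy lists (blue); 1 point per gene, filled at an adjusted p under 0.05, with the list median as a black line. List medians lie between 0.08 and 0.23 here and below 0 with library size alone, and single genes such as Tfec at 2.85, Sqstm1 at 1.87 and Ctsc at 1.75 lie far from them.

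Of the genes named in these 8 lists, Tfec, Acp5, Rnaset2a, Lmbrd1, Igf2r, Rheb, Rraga, Dmxl2, Ncoa7, Cst7, Sqstm1 and Optn stayed above 0 with library size alone, as Ctsc and Atp6v1e1 did. M6pr, Cstb, Cst3, Mitf, Tfe3 and Tcirg1 did not. The genes named as falling had larger negative values there, among them Flcn at -1.49, Tfeb at -1.26 and Atg14 at -1.80.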

How the data were processed

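Total RNA of 6 BMDM libraries (3 control, 3 LPS) was measured, with groups and replicate numbers as the labels give them. The authors made libraries with a stranded total RNA kit that depletes globin RNA, sequenced paired reads of 101 bp, aligned them to GRCm38 with HISAT2 2.1.0, used SAMtools 1.17 and deposited raw counts per gene from featureCounts 2.0.0. FastQC 0.11.9 was used for quality control. Annotation release, strand setting and handling of overlapping or multi-mapping reads were not given in the sources used here. Identifiers were matched to GENCODE M21 without version (55154 of 55335 rows). The table held 0 columns of other samples.

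From the counts, edgeR 4.0.16 in R 4.3.3 was run as a quasi-likelihood test without a block, on the 15687 genes that passed filterByExpr and with TMM scaling; p-values were adjusted by Benjamini-Hochberg across these genes. Standard errors came from the F statistic. CPM were scaled by TMM factors, and RPKM divided them by the summed exon length. The script was tested on simulated data. DESeq2 1.42.0, the authors' tool, limma 3.58.1 (voom), other scalings and filters, each library left out in turn and a replicate block were alternatives. The labels call the replicate numbers batches, which pairs the libraries; deviations of same-numbered libraries correlated at -0.014, 0.082 and 0.039.

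The genes and lists were chosen with earlier results of these data known. Genes named with values were those past both thresholds, the 6 highest and 6 lowest log2 fold changes, the 5 highest RPKM, the leading paralogs, the LAMP and accessory genes, the genes not tested, Tnf, Tcirg1, the MiT/TFE genes and, of other lists, the 2 highest and 2 lowest called values. A gene that this rule would name is not reported here. Other tested genes of the families, Nfkbil1, Ddx39b and the AP-1 and NF-κB motifs were named or searched beyond that rule, after values were seen. Promoter windows are from RefSeq. Reads without molecular identifiers are not independent molecules, so floors speak of counting error alone. At 37787611 counts or more per library, precision is limited mainly for genes under about 100 counts.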

Additional observations from a re-analysis of the deposited data

How the results depend on the processing

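Scaling decides most of the small values. Rises and falls among the 33 genes were 19 and 3 with TMM, 20 and 1 with DESeq2's size factors (Ctsf gained) and in DESeq2's own test (Ctsa gained), 9 and 10 with upper quartile scaling, and 2 and 26 with library size alone. Their median was 0.17 with DESeq2's size factors or test, 0.0123 with upper quartile scaling, -0.25 with library size alone, 0.12 without a filter beyond 1 count, 0.14 with a minimum of 10 counts in every library and 0.14 without the 10 highest genes. Leaving out 1 library gave 19 to 20 rises, 1 to 3 falls and medians of 0.15 to 0.18. The 1 fall, Atp6v1g2 alone, came without control library 1. With the replicate block as a pairing, 19 genes rose and 4 fell, Ctsd being the only changed call among the 33. For the other lysosomal lists, rises and falls were 18 and 119 with library size alone and 36 and 58 with upper quartile scaling.

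With library size alone, 22 genes that passed the test there or with TMM changed sign: Atp6v0a1 -0.20, Atp6v0b -0.21, Atp6v0c -0.0189, Atp6v0d1 -0.0454, Atp6v0e -0.25, Atp6v1a -0.0623, Atp6v1c1 -0.26, Atp6v1d -0.34, Atp6v1f -0.21, Atp6v1g1 -0.35, Atp6v1h -0.11, Atp6ap1 -0.23, Atp6ap2 -0.17, Ctsa -0.35, Ctsb -0.13, Ctsf -0.29, Ctsh -0.38, Ctso -0.27, Ctss -0.30, Ctsz -0.21, Lamp1 -0.21 and Lamp2 -0.16. With upper quartile scaling, Ctsa -0.0862, Ctsh -0.12, Ctso -0.0112, Ctss -0.039 and Atp6v1g1 -0.0912 did so on the same terms. Ctsk and Atp6v0d2 also lost their calls with DESeq2 (adjusted p = 0.16 and 0.071). With upper quartile scaling they were called falls, at -0.27 and -0.24 (adjusted p = 0.00027 and 9.2e-06). Which scaling is nearest to RNA per cell was not tested. Depth limits Atp6v1g2 and Ctsg, which had under 100 counts per library.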
